A study of Arabidopsis thaliana with 28 samples.

Results

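The PIP1 aquaporins of Arabidopsis thaliana are the 5 genes PIP1A (PIP1;1, AT3G61430), PIP1B (PIP1;2, AT2G45960), PIP1C (PIP1;3, AT1G01620), PIP1;4 (AT4G00430) and PIP1;5 (AT4G23400). The symbols are those of the RefSeq annotation, with the systematic names beside them where these differ. The genes were taken from the messenger RNA table by locus identifier, a rule that uses no measured value, though earlier results of these data were known when they were chosen. All 5 were found among the 33557 entries of the table, and all 5 were among the 20034 genes that reached 1 FPKM (fragments per kilobase of transcript, scaled to the size of the library) in at least 2 pools and were tested. The study followed whole Col-0 wild type seedlings given either ABA (abscisic acid, a hormone that plants make when water is short) or ethanol as a mock. Collection was at 0.5, 1, 3, 6, 9, 12 and 24 h, and 28 RNA sequencing libraries were made, 2 for every treatment at every time. The deposited table gives 1 FPKM value per gene for each of these 14 pools of 2 libraries, so the spread between libraries was not measurable. The labels state neither an ABA dose nor a seedling age, nor whether the libraries of a pool were from separate cultures.

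Aquaporins are membrane channels that let water, and in some cases other small neutral molecules, cross a membrane along its gradient. Plasma membrane intrinsic proteins (PIPs) form the main water channels of the plant cell surface and fall into the PIP1 and PIP2 subfamilies, which assemble into mixed tetramers. PIP1 proteins often need a PIP2 partner to reach the plasma membrane, while tonoplast intrinsic proteins (TIPs) serve the vacuole. ABA closes stomata and alters the water conductance of roots, and aquaporins are studied as a point where the hormone meets water transport.

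The members lie on 4 chromosomes of the TAIR10.1 assembly. PIP1A is on chromosome 3 at 22733243 to 22735394 (plus strand), PIP1B on chromosome 2 at 18910081 to 18911982 (plus) and PIP1C on chromosome 1 at 225665 to 227543 (minus). The other two lie on chromosome 4, PIP1;4 at 185285 to 187680 (minus) and PIP1;5 at 12220641 to 12222468 (plus). No other annotated gene overlaps any of them. Their coding sequences were 79.8 to 87.6% identical to each other, the closest pair being PIP1A and PIP1B. No stretch of 50 bases in any member's transcripts was shared with another gene, and the longest run shared by a pair of members was 41 bases (PIP1A and PIP1B). The coding sequences of the closest subfamily, PIP2, were at most 75.9% identical to a member (PIP1C and PIP2A). The labels do not say how reads matching several genes were counted.

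Upstream sequence was read from the same assembly and the RefSeq annotation because the members moved together in part of the data. The core letters of the ABA-responsive element (ABRE), ACGTG, were searched on both strands. In the 250 bases before the gene start they were in 0 of 5 members and in 24.4% of 19495 windows of the same length. In the 1000 bases before the gene start they were in 3 of 5 members, PIP1A, PIP1B and PIP1C, and in 55.8% of windows. The windows around these matches are shown 5′ to 3′ on the gene's strand, at chr3:22732405-22732463 (plus), chr2:18909227-18909286 (plus) and chr1:228325-228384 (minus), with the matching letters of either strand in capitals.
PIP1A: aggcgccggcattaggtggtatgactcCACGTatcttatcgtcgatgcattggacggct
PIP1B: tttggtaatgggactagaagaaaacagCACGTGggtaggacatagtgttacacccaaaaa
PIP1C: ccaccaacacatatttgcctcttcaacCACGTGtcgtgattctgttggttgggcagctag

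In PIP1B and PIP1C the letters form the palindrome CACGTG, so that the matches on both strands overlap. This G-box was in 16.5% of the windows of 1000 bases. In PIP1C the letters also read ACGTGTC, which 9.26% of windows held. PIP1;4 and PIP1;5, of which only the first passed the test of the ABA effect below, held no ACGTG in 1000 bases. Their 250 bases before the gene start are shown at chr4:187681-187930 (minus) and chr4:12220391-12220640 (plus), with the TATA letters TATAAA, searched on the gene's strand, in capitals. TATAAA was in these 250 bases of 3 of 5 members, PIP1B being the other, and in 31.6% of windows of 250 bases.
PIP1;4: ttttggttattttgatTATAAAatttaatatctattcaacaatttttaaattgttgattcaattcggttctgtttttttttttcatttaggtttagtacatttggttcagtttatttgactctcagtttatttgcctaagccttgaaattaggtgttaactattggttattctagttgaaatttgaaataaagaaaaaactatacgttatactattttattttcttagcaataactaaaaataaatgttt
PIP1;5: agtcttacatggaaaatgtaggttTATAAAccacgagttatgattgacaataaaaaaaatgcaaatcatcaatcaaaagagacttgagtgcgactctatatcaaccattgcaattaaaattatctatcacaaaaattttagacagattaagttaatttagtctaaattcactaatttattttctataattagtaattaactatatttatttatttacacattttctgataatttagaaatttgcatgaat

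The core of the dehydration-responsive element, CCGAC on either strand, was in the 1000 bases of PIP1A and PIP1C and in 38.8% of windows. The evening element of clock-controlled genes, AAAATATCT on either strand, was in none of the members and in 7.28% of windows of 1000 bases. A match is a description of letters and not of a bound site.

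The pools held about 34200000 to 49000000 fragments, as implied by the steps between low values. The members stood on about 4888 to 71490 implied fragments per pool, so that counting error alone was at most 1.43% of a value. As a check of the labels, 5 of 5 ABA response genes (HAI1, ABI1, LTI65, RAB18 and COR15A) were higher under ABA at 7 of 7 times, with differences averaged over the 7 times of 2.81 to 7.26 on the log2(FPKM + 1) scale. The summed FPKM of a pool ranged from 903608 to 1173230, and the effect of scaling every pool to the same sum is given beside the time courses.

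The PIP1 genes were abundant transcripts that differed in level and in time course. PIP1B, a channel known to carry water and studied for carbon dioxide, was the highest of the 5 in 14 of 14 pools. PIP1B stood at 1017, 962, 611, 479.9, 520.0, 493 and 631 FPKM in the mock pools from 0.5 to 24 h. Under ABA it stood at 1349, 1396, 903, 664, 805, 959 and 943 FPKM. At 7 of 7 times the ABA pool was the higher, but the ranges of the treatments overlapped, since early mock pools lay above late ABA pools.

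PIP1A, a water channel of the same subfamily, had mock levels of 425, 392, 253, 206, 229, 229 and 283 FPKM. Its ABA levels were 524, 558, 765, 512, 553, 724 and 598 FPKM. PIP1A was the only member whose treatments did not overlap. Its lowest ABA pool, 512 FPKM at 6 h, lay above its highest mock pool, 425 FPKM at 0.5 h. How many of all genes tested were apart in this way was not counted. Among other aquaporins, PIP2;5 (at most 10.4 FPKM in mock, at least 11.6 FPKM under ABA) and TIP2;3 (36.2 and 41.7 FPKM) were apart as well.

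PIP1C had mock levels of 607, 546, 259, 168, 169, 151 and 261 FPKM. Under ABA its levels were 695, 799, 489, 315, 297, 279 and 285 FPKM. The ABA pool was higher at 7 of 7 times, and the difference was smallest at 24 h, where the mock level had come back up and the ABA level had not.

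PIP1;4, which in Arabidopsis is known to let hydrogen peroxide into cells during defence, had mock levels of 223, 235, 146, 129, 135, 130.3 and 163 FPKM. Under ABA that gene stood at 193, 248, 417, 295, 226, 257 and 206 FPKM, with its peak at 3 h. The ABA pool was lower than mock at 0.5 h and higher at the other 6 times. PIP1;5 had mock levels of 204, 190.2, 156, 124, 131, 100.5 and 156 FPKM. Its ABA levels were 239, 199, 179, 161, 137, 130.1 and 134 FPKM, higher than mock at 6 times and lower at 24 h.

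**Figure D1:**
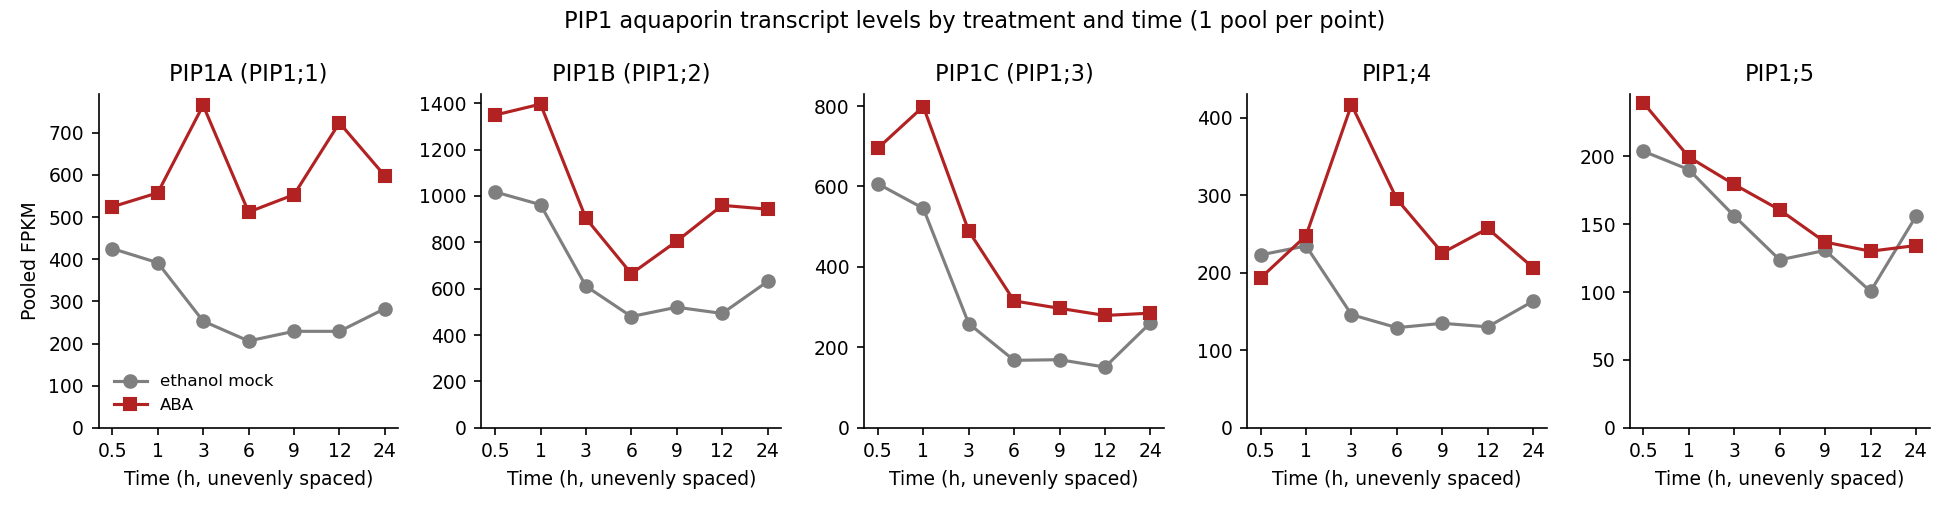
Pooled FPKM (vertical axis, starting at 0, with its own scale in each panel) of each PIP1 gene at 7 unevenly spaced times (horizontal axis), with grey circles for mock and red squares for ABA, 1 pool per point and no error bars because the libraries were pooled. The ABA points of PIP1A (512 to 765 FPKM) all lie above its mock points (206 to 425 FPKM), while those of PIP1;5 lie close to mock throughout.

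Averaged over the mock pools, the order was PIP1B (674 ± 224 FPKM, SD over the 7 times), PIP1C (309 ± 189), PIP1A (288 ± 86.2), PIP1;4 (166 ± 44.7) and PIP1;5 (152 ± 36.7). PIP1C and PIP1A, and likewise PIP1;4 and PIP1;5, differed there by less than their spread over times. That spread does not measure the difference between genes in the same pools. In mock, PIP1C stood above PIP1A from 0.5 to 3 h and below it from 6 h on. PIP1;5 stood above PIP1;4 in mock only at 3 h. Averaged over the ABA pools, PIP1B again stood highest (1003 ± 272 FPKM, SD over the 7 times), followed by PIP1A (605 ± 99.9), PIP1C (451 ± 216), PIP1;4 (263 ± 75.7) and PIP1;5 (169 ± 40.4). PIP1A was at rank 2 in 9 pools and PIP1C in the other 5. The remaining pair shared ranks 4 and 5, in the order given in 12 of 14 pools.

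The question of the mock time course was whether the members fell without the hormone. All 5 did: the mock level of every PIP1 gene was lower late (9, 12 and 24 h) than early (0.5 and 1 h). The series holds no pool from before the treatment, so the start is the 0.5 h pool, and the untreated level is not known. PIP1C fell by the most, from 607 FPKM at 0.5 h to 151 FPKM at 12 h, or 24.9% of its start. PIP1A reached 48.5% of its start at 6 h, PIP1B 47.2% at 6 h, PIP1;4 57.9% at 6 h and PIP1;5 49.3% at 12 h. At 24 h all 5 stood above their lowest mock value, between 43.0% (PIP1C) and 76.5% (PIP1;5) of the start.

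A limma fit of treatment by phase on log2(FPKM + 1), with times inside a phase standing as replicates, gave a mock change of -1.61 ± 0.251 (SE) for PIP1C, with a Benjamini-Hochberg adjusted p of 4.94e-04. The change was -0.86 ± 0.172 for PIP1B (limma adjusted p = 0.00222) and -0.73 ± 0.185 for PIP1A (0.00843). It was -0.68 ± 0.172 for PIP1;4 (limma adjusted p = 0.00823) and -0.63 ± 0.169 for PIP1;5 (0.0117). Of all genes tested, 20.0% passed in that direction, and 29.1% of the 1799 genes with a mean of at least 100 FPKM did. Scaling each pool to the same sum moved the median late minus early change of all genes tested from -0.01 to 0.17 in mock and from 0.02 to 0.20 under ABA, and moved the mock split of all genes from 4008 higher and 4016 lower to 5820 and 2364. The 5 members stayed lower in mock under that scaling, from -1.39 (PIP1C) to -0.41 (PIP1;5), with a median of -0.51 in place of -0.73. Calls were lost for PIP1A without the 0.5 h pools (adjusted p = 0.0790), for PIP1;4 without 1 h (0.0540) or with a slope on log2 hours in place of phases (0.124), and for PIP1;5 without 0.5 h (0.0816) or 12 h (0.0515).

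Most of the mock decline was already present at 3 and 6 h. A contrast of these times with 0.5 and 1 h, added after the values were seen, gave mock changes of -1.46 (PIP1C), -0.87 (PIP1B), -0.83 (PIP1A) and -0.73 (PIP1;4), which passed. PIP1;5 had -0.50 and an adjusted p of 0.0651 from limma. The background for 4 of 5 lower was 14.5% of all genes tested. Without 0.5 h or 6 h only PIP1C kept its call (adjusted p = 0.0550 to 0.0865 for the other 3 that had passed), and PIP1;4 also lost it without 1 h (0.0658).

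The time course of the seedlings reached other genes as well. The summed level of the 17 root markers had a mean of 288 FPKM early and 163 FPKM late in mock, and means of 322 and 164 FPKM under ABA. IRT1, an iron transporter of roots, carried much of this fall, with means of 108 and 23.8 FPKM in mock and 62.1 and 3.41 FPKM under ABA. The other 16 root markers summed to means of 180.2 and 139 FPKM in mock and 260.2 and 160.3 FPKM under ABA. The sum of the 10 shoot and leaf markers had means of 29328 and 13703 FPKM in mock, and of 26561 and 15233 FPKM under ABA. It was carried by the photosynthesis genes RBCS1A and RCA and says little of the rest of that list. Late in mock, 5 of the 10 were lower and 0 higher (median -0.32). Of 16 root markers tested, 5 were lower and 0 higher (median -0.43), beside 20.0% of all genes tested in each direction. Over the single pools the root sum ranged from 158 to 298 FPKM in mock and 148 to 323 FPKM under ABA, and the shoot and leaf sum from 13025 to 29690 and from 11031 to 26591 FPKM. The 5 vascular markers ranged from 159 to 241 FPKM in mock and 225 to 313 FPKM under ABA, and the 7 reference genes from 2920 to 3518 and from 2813 to 3567 FPKM. The vascular sum had early and late means of 236 and 167 FPKM in mock, and of 255 and 290 FPKM under ABA. From early to late, ABA minus mock rose in 2 of 5 vascular markers (6.5% of all genes tested), XCP1 by 1.03 and XCP2 by 1.19. Late in mock, 2 of 7 reference genes were higher and 1 lower. ACT2 changed by -0.95 ± 0.147 (SE) and AT5G60390 by 0.45 ± 0.142. No marker was at 0 in any pool, and the part of tissue makeup in the PIP1 levels was not tested. In whole seedlings, fewer cells of a type and less RNA per cell cannot be told apart. Of 12 clock genes, 0 were higher and 4 lower late in mock (median -0.20), beside 20.0% of all genes tested in each direction.

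Whether the time course under ABA differed from that in mock is tested further below. The ABA level itself fell late for PIP1B, PIP1C and PIP1;5, and did not pass the test in either direction for PIP1A and PIP1;4. PIP1C under ABA went from 695 to 279 FPKM at 12 h, or 40.2% of its 0.5 h ABA pool, and was still at 41.0% at 24 h. PIP1B reached its lowest ABA level, 49.3% of the start, at 6 h and was at 69.9% at 24 h. PIP1;5 stood at 54.4% at 12 h. PIP1A never went below 97.6% of its 0.5 h ABA level and reached 146% at 3 h. PIP1;4 stood at 216% at 3 h and 107% at 24 h.

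In the fit, the ABA change from early to late was -1.37 ± 0.251 (SE) for PIP1C (limma adjusted p = 0.00141), -0.70 ± 0.169 for PIP1;5 (0.00728) and -0.61 ± 0.172 for PIP1B (0.0169). It was 0.20 ± 0.185 for PIP1A (limma adjusted p = 0.428) and 0.06 ± 0.172 for PIP1;4 (0.803). Of all genes tested, 18.5% passed as lower and 17.4% as higher. With pools scaled to the same sum, PIP1A passed as higher under ABA, with 0.41 and an adjusted p of 0.0360 from limma. The call of PIP1B was lost without 0.5, 1 or 9 h (adjusted p = 0.0660 to 0.107) and with the slope on log2 hours (0.104), and that of PIP1;5 without 0.5 h (0.0942).

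At 3 and 6 h the ABA level of PIP1;4 was higher than early, by 0.68 ± 0.189 (SE, limma adjusted p = 0.0165, against 17.2% of all genes passing as higher). Without 0.5 h or 3 h this call was lost (adjusted p = 0.172 and 0.173). PIP1B (-0.82) and PIP1C (-0.92) were lower at these times, where 16.7% of all genes tested passed as lower. The call of PIP1B was lost without 6 h (adjusted p = 0.0620), and that of PIP1C without 0.5, 1 or 6 h (0.0782 to 0.153).

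**Figure D2:**
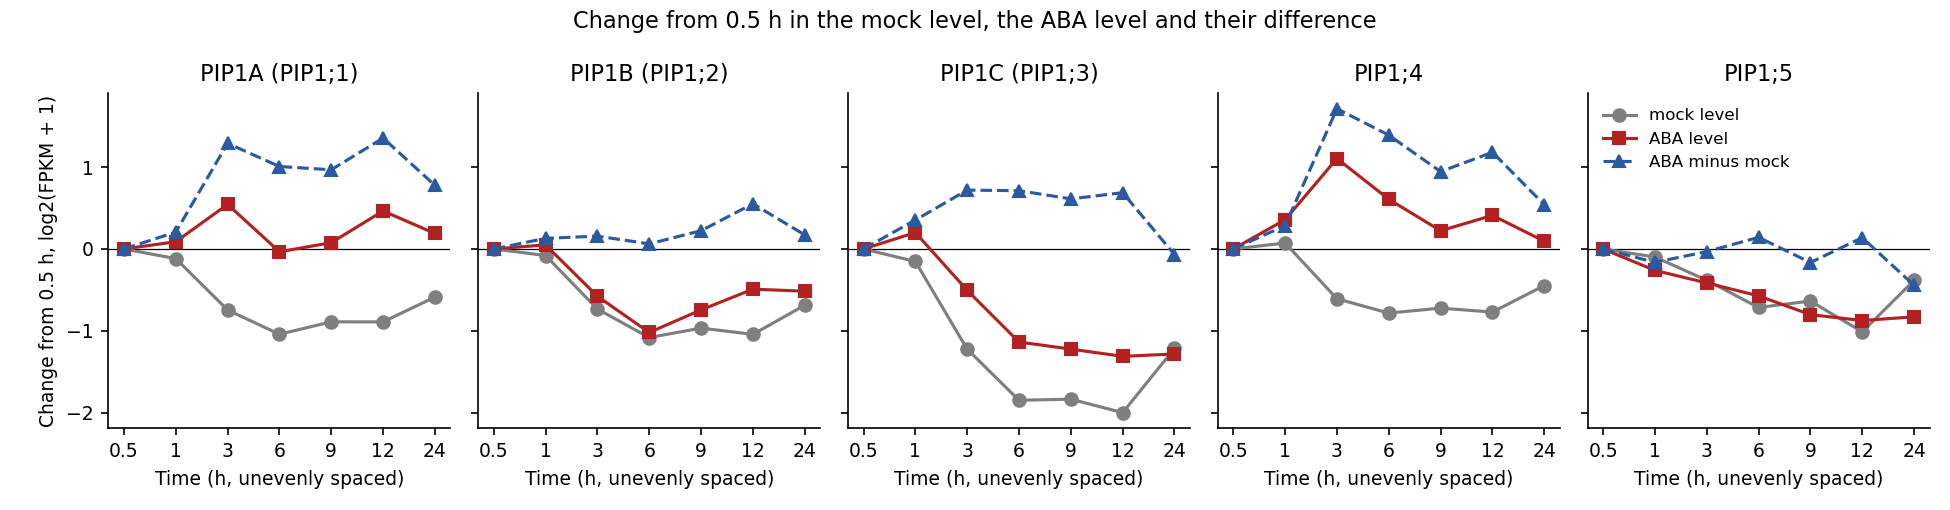
Change from the 0.5 h pool (vertical axis, log2(FPKM + 1)) in the mock level (grey circles), the ABA level (red squares) and the ABA minus mock difference (blue triangles, dashed) at each of 7 unevenly spaced times (horizontal axis), 1 pool per level. For PIP1A the mock line falls and the ABA line stays near or above 0, while for PIP1B, PIP1C and PIP1;5 both lines fall.

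The level after ABA can also be set against the mock start, which shows whether a level was above the early mock level or only above the mock of its own time. PIP1A under ABA lay between 120% (6 h) and 180% (3 h) of the 0.5 h mock pool. PIP1;4 stood at 86.7% of the mock start at 0.5 h, 111% at 1 h, 187% at 3 h and 92.6% at 24 h. PIP1B was at 137% at 1 h, 65.3% at 6 h and 92.7% at 24 h of the mock start. PIP1C was at 132% at 1 h and at 46.0 to 52.0% from 6 to 24 h. Higher values than mock at the same time therefore stood above the early mock level for PIP1A at all 7 times, and below it for PIP1C from 3 h on.

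Averaged over the 7 times, 4 of 5 PIP1 genes were higher under ABA than in the mock of the same time, and none was lower (23.2% of all genes tested were). PIP1A differed by 1.10 ± 0.173 (SE of the log2(FPKM + 1) difference), with an adjusted p of 0.00136 in a limma fit with time as a block. PIP1;4 differed by 0.66 ± 0.201 (limma adjusted p = 0.0248), PIP1C by 0.63 ± 0.124 (0.00395) and PIP1B by 0.59 ± 0.0898 (0.00116). PIP1;5 differed by 0.16 ± 0.0887, which did not pass (limma adjusted p = 0.176). Of all genes tested, 23.9% passed as higher, and 21.6% of those with a mean of at least 100 FPKM. The call of PIP1;4 was lost without 3, 6, 9 or 12 h (adjusted p = 0.0598 to 0.0718). Without the time block the call of PIP1C was lost (adjusted p = 0.192).

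At single times the authors' deposited table called 22 of 35 pairs of PIP1 gene and time, all 22 higher under ABA. PIP1B was called at 7 of 7 times in the authors' deposited table, PIP1A at 6, PIP1C at 5, PIP1;4 at 4 and PIP1;5 at 0. By time, the authors' deposited table called 1 member higher at 0.5 h (10.2% of all genes tested), 3 at 1 h (15.5%) and 4 at 3 h (24.8%). It also called 4 at 6 h (22.2% of all genes tested, in the authors' deposited table), 4 at 9 h (17.7%), 4 at 12 h (18.7%) and 2 at 24 h (19.2%). The ratio of the ABA pool to the mock pool of the same time was read for each member, from 1 pool per treatment. For PIP1A it was 1.23 at 0.5 h, 1.42 at 1 h and 3.02 at 3 h, and it was between 2.11 and 3.16 from 6 h on. For PIP1B the ratio was between 1.33 and 1.55 at 6 of the times and 1.95 at 12 h. For PIP1C it was 1.15 at 0.5 h, between 1.75 and 1.89 from 3 to 12 h, and 1.09 at 24 h. For PIP1;4 it ran from 0.867 at 0.5 h to 2.86 at 3 h, and for PIP1;5 from 0.862 at 24 h to 1.30 at 6 h, with no error measurable at a single time. At 0.5 h the called gene in the authors' deposited table was PIP1B, with a log2 ratio of 0.41. The largest log2 ratios of members in the authors' deposited table were 1.66 for PIP1A at 12 h, 1.60 for PIP1A at 3 h and 1.51 for PIP1;4 at 3 h. With a 2-fold difference required as well, calls in the authors' deposited table fell to 0 members at 0.5 h (4.11% of all genes tested), 0 at 1 h (7.09%), 2 at 3 h (12.3%) and 2 at 6 h (10%). Each later time had 1 such member in the authors' deposited table, beside 8.44% of all genes tested at 9 h, 8.2% at 12 h and 7.3% at 24 h. An FPKM ratio past 1.5, called or not, held for 0 members at 0.5 h (11.2% of all genes tested), 0 at 1 h (15.8%) and 1 at 24 h (17.8%). At 3 and 6 h it held for PIP1A, PIP1C and PIP1;4 (23.7 and 21.0% of all genes tested). At 9 and 12 h it held for these and for PIP1B (17.6 and 18.2%).

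The difference between the ABA and mock time courses was then tested directly, as the late minus early change under ABA minus that in mock. PIP1A passed with 0.93 ± 0.262 (SE, limma adjusted p = 0.0363), with a mock level that fell and an ABA change that did not pass in either direction. PIP1;4 had 0.75 ± 0.244 (limma adjusted p = 0.0634), PIP1B 0.25 ± 0.244 (0.548), PIP1C 0.23 ± 0.354 (0.717) and PIP1;5 -0.08 ± 0.240 (0.873). The count of 1 of 5 higher stands beside 6.5% of all genes tested. PIP1A lost its call without 0.5, 1, 9 or 12 h (adjusted p = 0.0671 to 0.212), with no filter on low values (0.0526) and with a slope on log2 hours in place of phases (0.164). PIP1;4 passed without 24 h (limma adjusted p = 0.0420) and with pools scaled to the same sum (0.0301).

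At 3 and 6 h against 0.5 and 1 h the difference between the time courses was 1.41 ± 0.267 (SE) for PIP1;4 (limma adjusted p = 0.00670) and 1.05 ± 0.287 for PIP1A (0.0349). The count of 2 of 5 higher stands beside 7.65% of all genes tested, in a contrast added after the values were seen. The former lost its call without 0.5 h (adjusted p = 0.0674). PIP1A lost it with no filter (adjusted p = 0.0522) and without any of 0.5, 1, 3, 6, 9 or 12 h (0.0507 to 0.204).

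**Figure D3:**
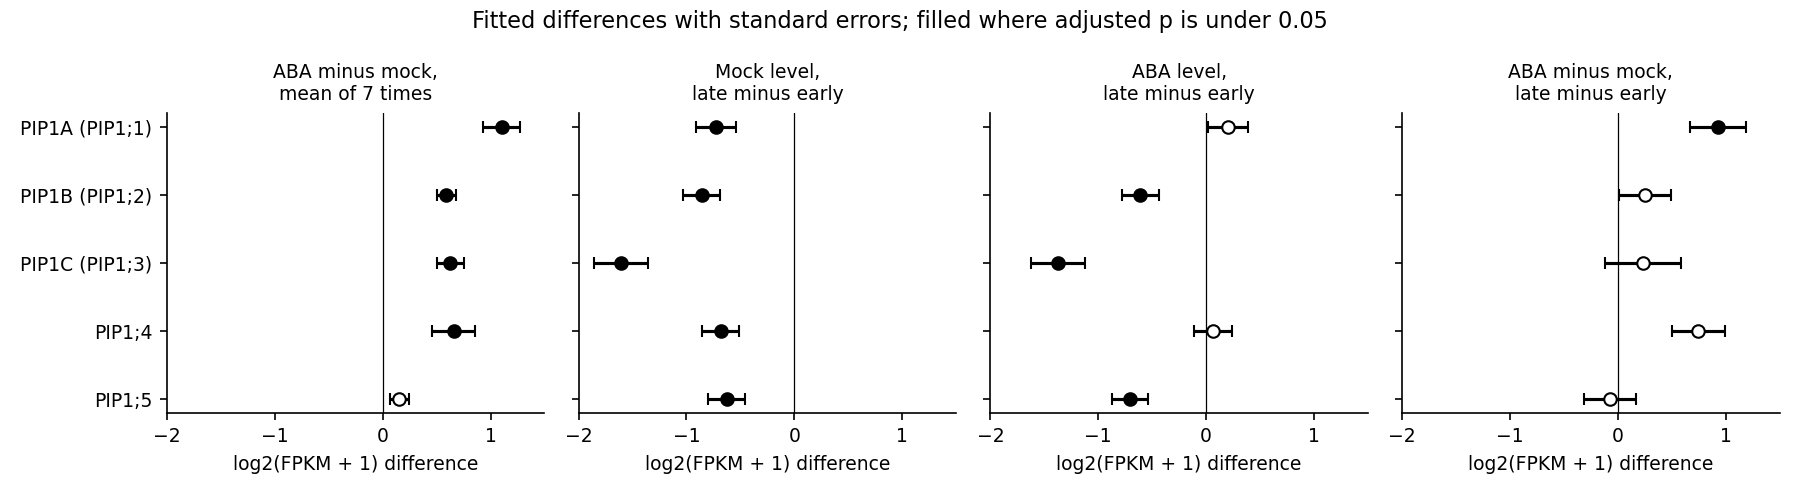
Fitted differences on the log2(FPKM + 1) scale (horizontal axis) with their SE as bars for each PIP1 gene (rows), for the ABA minus mock difference averaged over 7 times and for the late minus early change in mock, under ABA and in ABA minus mock. Filled points have an adjusted p under 0.05: 4 genes in the first panel, 5 in the mock panel, 3 in the ABA panel and PIP1A alone in the last.

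Whether members differed in their ABA effect was asked in 10 pairs, over the 7 differences of each pair, with an exact two-sided sign-flip permutation test whose smallest p is 0.0156. No pair passed after adjustment over the 10, and 6 of 10 had an unadjusted p under 0.05. Pairs at the smallest possible p were adjusted to 0.0521, so the test had little room to pass any pair. It does not show that members respond alike. The effect of PIP1A exceeded that of PIP1;5 by 0.95 ± 0.504 (SD) and that of PIP1;4 by 0.44 ± 0.254, both at 7 of 7 times (exact p = 0.0156, adjusted 0.0521). The effect of PIP1B exceeded that of PIP1;5 by 0.44 ± 0.244 (SD), also at 7 of 7 times (exact p = 0.0156, adjusted 0.0521). Among PIP1B, PIP1C and PIP1;4 the mean differences were -0.07 to -0.03, with SDs of 0.314 to 0.581 over times, and each had a sign that varied between times.

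Across the 7 mock pools the members' levels moved together, with Pearson correlations of 0.890 to 0.995 for the 10 pairs. Across the 7 ABA pools the correlations ran from -0.39 (PIP1B and PIP1;4) to 0.925 (PIP1C and PIP1;5). These are descriptions over pools that share a time series.

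Summed over the 5 genes, the mock level went from 2476 FPKM at 0.5 h to 1104 FPKM at 12 h and 1494 FPKM at 24 h. The ABA sum was 3001 FPKM at 0.5 h, 3199 FPKM at 1 h, 1947 FPKM at its lowest (6 h) and 2167 FPKM at 24 h. The sum under ABA was therefore 1.21 times mock at 0.5 h, 1.93 times at 3 h, 2.13 times at 12 h and 1.45 times at 24 h. The makeup of the sum moved too: PIP1A made up 16.9 to 20.7% of it in mock, 17.4% at 1 h of ABA and 30.8% at 12 h of ABA. PIP1C made up 24.5% of the sum in mock at 0.5 h and 13.7% at 12 h, and 23.2% and 11.9% under ABA. The 5 genes together held between 0.119 and 0.275% of the summed FPKM of a pool.

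**Figure D4:**
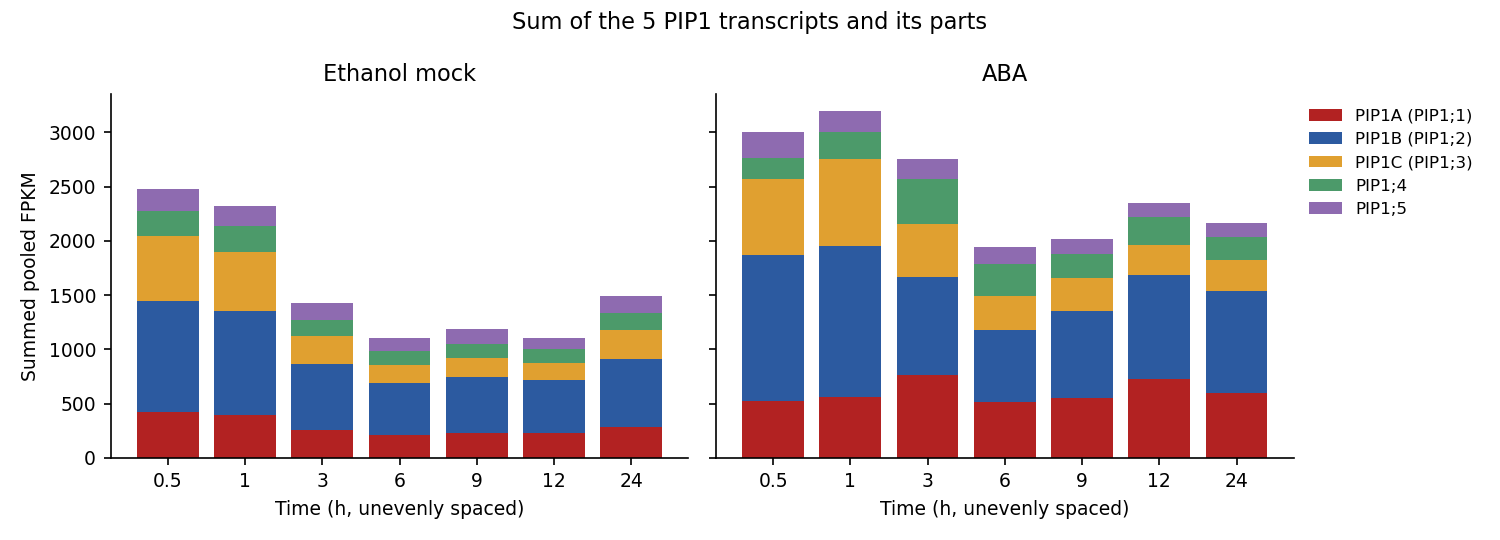
Summed FPKM of the 5 PIP1 genes (stacked bars from 0, vertical axis) at 7 unevenly spaced times (horizontal axis) in mock (left) and under ABA (right), 1 pool per bar. The mock sum falls from 2476 to 1104 FPKM at 12 h, while the ABA sum does not go below 1947 FPKM, and PIP1A (red) widens from 3 h on under ABA.

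The PIP2 genes, partners of PIP1 in the membrane, were also mostly higher under ABA and lower late in mock. Of 8 tested, 6 were higher and 1 lower under ABA on average (median 0.58, beside 0.63 for PIP1 and 0.00 for all genes), and 6 were lower late in mock (median -0.61). Late under ABA, 6 were lower and 1 higher (median -0.77), beside 18.5% and 17.4% of all genes tested. For this and the lists below, 23.9% of all genes tested were higher and 23.2% lower under ABA on average. Late in mock 20.0% of all genes were higher and 20.0% lower. PIP2A (PIP2;1), a major water channel of roots and guard cells, was higher by 1.09 ± 0.165 (SE, limma adjusted p = 0.00115) and stood at 319.6 to 798 FPKM in mock and 781 to 1356 FPKM under ABA. PIP2;5 differed by 0.98 ± 0.169 (limma adjusted p = 0.00207), from a mean of 8.56 to 18.1 FPKM. PIP2E fell in mock by 0.97 ± 0.259 (SE), and PIP3 (PIP2;7) by 1.24 ± 0.217. The sum of PIP2 was 1.24 times mock at 0.5 h, 2.25 times at 3 h and 1.17 times at 24 h, and PIP1 was 0.732 to 0.965 of the PIP2 sum over all pools.

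Of the 10 TIP genes, 8 were tested, of which 7 were higher under ABA on average (median 0.73) and 7 lower late in mock (median -1.09). TIP2;3 and TIP2;2 differed by 1.95 ± 0.144 and 0.98 ± 0.120 (SE), and TIP3;1, a vacuolar channel of seeds, by 3.37 ± 0.428, from a mean of 0.762 to 18.3 FPKM. DELTA-TIP, an abundant channel of the vacuole, fell in mock by 2.20 ± 0.272 (SE) and did not pass the averaged ABA test (0.04, adjusted p = 0.858 from limma). The NIP and SIP genes, of other aquaporin subfamilies, gave other counts. Of these 12 genes 9 were tested, and 1 was higher and 5 lower under ABA (median -0.62), and 2 were higher and 1 lower late in mock. NIP5;1, a boric acid channel, differed by -0.77 ± 0.0869 (SE) and SIP1;2, a channel of the endoplasmic reticulum, by -0.65 ± 0.192, while SIP2;1 differed by 0.36 ± 0.109. NLM1, also of the NIP family, fell in mock by 0.73 ± 0.265 (SE). Whether these families differ from PIP1 was not tested. At 3 h the authors' deposited table called 5 of 8 PIP2 genes higher and 0 lower, and 5 of 8 TIP genes higher and 1 lower. It called 1 of 9 NIP and SIP genes higher and 4 lower, beside 24.8% of all genes tested called higher and 20.1% lower. At 12 h the authors' deposited table called 4 of 8 PIP2 genes and 7 of 8 TIP genes higher. It called 0 of 9 NIP and SIP genes higher and 4 lower, beside 18.7% of all genes tested called higher and 17.9% lower. The median log2(FPKM + 1) effect at 12 h was 0.96 for PIP1, 0.57 for PIP2, 0.91 for TIP and -0.62 for NIP and SIP, beside -0.01 for all genes tested.

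The list of PIP partners and regulators held 16 genes, most of them for proteins that bind, move or modify PIPs, of which 3 were higher and 2 lower under ABA (median 0.03), and 0 higher and 8 lower late in mock (median -0.45). TSPO, a stress-induced membrane protein that in Arabidopsis takes the PIP3 aquaporin to degradation, was higher by 6.74 ± 0.495 (SE, limma adjusted p = 3.81e-05). CA1, a carbonic anhydrase, fell in mock by 2.53 ± 0.367 (SE), and AT1G22190, a transcription factor related to RAP2.4, by 1.30 ± 0.208. Of 16 root markers tested among 17, 6 were higher and 3 lower under ABA. Of 10 shoot and leaf markers 0 were higher and 4 lower, and of 5 vascular markers 3 were higher and 0 lower. Of 12 clock genes 2 were higher and 0 lower, and of 7 reference genes 1 was higher and 2 lower.

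The genes whose profile over the 14 pools was most like the mean profile of the 5 members were ranked by Pearson correlation of log2(FPKM + 1) among 14520 genes with a mean of at least 5 FPKM. The closest were AT4G38690 (r = 0.984), SCN1 (0.976), UBC8 (0.975), AT3G16850 (0.968) and VTI1B (0.967), followed by AT1G03520, AT1G50440, AT3G06780, AT1G72230 and AT4G11211 (0.952 to 0.967). AT4G38690 was at 40.5 FPKM at 0.5 h and 8.07 FPKM at 12 h in mock, and at 54.2 and 27.7 FPKM under ABA. Among aquaporins PIP3 ranked highest (r = 0.942, rank 35), followed by PIP2E (0.941, rank 39) and PIP2A (0.922, rank 82).

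The members' own nearest profiles differed. PIP1A was closest to AT3G05345 (r = 0.985), AT3G51730 (0.982) and CAT2 (0.974), and PIP1B to AT4G11211 (0.968), AT5G01750 (0.967) and AT5G54980 (0.966). PIP1C was closest to PIP3 (r = 0.988), AT3G61260 (0.977) and the auxin response gene IAA8 (0.976). PIP1;4 was closest to AT5G06440 (r = 0.978), PGM2 (0.976) and AT4G36610 (0.970), and PIP1;5 to AT1G16170 (0.956), AT2G14910 (0.951) and AT1G57980 (0.937). PIP3 had mock levels of 347 to 1054 FPKM and ABA levels of 516 to 1417 FPKM.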

How the data were processed

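Per the submitters' processing notes, reads were checked with FastQC and aligned with STAR to TAIR10. Neither the quantifier nor the authors' test is named there. The deposited table holds the authors' FPKM values, 1 per gene and group of 2 libraries. The unit was inferred from the values. Its log2 column is the authors' log2 ratio of ABA over mock without a pseudocount (checked, largest gap 0.00262), and its yes or no calls are the authors' own.

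The PIP1 members, the gene lists and the tests were chosen with earlier results of these data known. Values were analysed as log2(FPKM + 1), which understates changes of low genes, over the 20034 genes reaching 1 FPKM in 2 or more pools. Models were fitted with limma 3.58.1 under R 4.3.3, using a trended eBayes prior. The averaged ABA effect used time as a block (6 residual degrees of freedom). The phase fit had 1 mean per treatment and phase (8 degrees of freedom). The contrast of 3 and 6 h with 0.5 and 1 h was added after the values were seen. Times stand as replicates, so p-values measure the spread between times and can be too low if adjacent times resemble each other. Benjamini-Hochberg adjustment ran over all genes tested, and adjusted values under 0.05 were called. No test was possible at a single time. The fits were tested on simulated data. Implied fragments came from the steps between low values times transcript length minus 250 bases. Positions and upstream windows came from TAIR10.1 with the RefSeq annotation.

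Named genes were the 5 members. To these were added, of each other aquaporin list at most the 4 largest effects in the averaged ABA or mock late minus early test among genes passing either, with a mean of at least 5 FPKM, of other lists at most 3, and the 10 closest profiles to the members' mean and 3 to each member. Outside this rule, the 5 genes of the label check, RBCS1A, RCA and IRT1 were named after their values were seen.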

Additional observations from a re-analysis of the deposited data

Results flagged for a closer look

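The ABA effect of PIP1A differed between phases of the time course, by 0.93 (log2) between the late times (9, 12 and 24 h) and the early times (0.5 and 1 h), and by 1.05 between the middle times (3 and 6 h) and the early times. The ABA effect of PIP1;4 differed by 1.41 between the middle and the early times. Each was tested as the difference of the effects in limma, and each lost its call without at least 1 of the times, as given with the results.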

How the results depend on the processing

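Of 660 alternatives for single genes and pairs, 612 stayed on the same side of the threshold. Another 42 kept the direction and lost the call, 6 gained one, and 0 reversed with a call in either setting. The 612 include estimates that changed sign while passing in neither setting. They also include alternatives with little or no room to move. For pairs, the smallest adjusted p of the sign-flip test stayed at 0.0521 under every pseudocount and scaling. Leaving out a middle time cannot change a late minus early estimate, only its error, and the same holds for a late time and the middle estimates. The count of 612 is therefore not a measure of robustness. No paired analysis was possible between libraries, because the columns are pools of the 2 libraries and carry no replicate numbers. Pools were paired by time in the averaged effect and in the tests between members, and the late effect fitted on the 7 ABA minus mock differences called 1 PIP1 gene higher, 1328 of all genes higher and 1547 lower. For the same reason each time, and not each library, was left out in turn. The cause of the moves below was not tested.

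With pools scaled to the same sum, all genes lower late in mock numbered 2364 (5820 higher), and under ABA 5631 were higher and 2458 lower. PIP1 genes then numbered 1 higher late under ABA and 2 higher in the late minus early effect, where 1129 of all genes were higher. In the middle times 4237 genes were higher and 1501 lower in mock, and 1009 had a higher effect. With a slope on log2 hours, 2578 genes were lower in mock, 2066 higher under ABA, and the effect had 0 PIP1 genes higher, with 406 of all genes higher and 589 lower. With no filter the late effect had 0 PIP1 genes higher and the middle effect 1, beside 1187 and 1403 of 25269 genes. With 9 and 12 h as late the effect had 2 PIP1 genes higher, beside 1223 of 20034 genes.

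Counting the authors' deposited calls only with a 2-fold difference left 0, 0, 2, 2, 1, 1 and 1 PIP1 genes from 0.5 to 24 h. An FPKM ratio past 1.5 held for 0 at 0.5 h, 0 at 1 h and 1 at 24 h.

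Leaving out each time in turn gave these ranges. Averaged effect: 3 to 4 PIP1 genes higher, and 3637 to 4832 higher and 3465 to 4643 lower of all genes. Mock, late: 3 to 5 PIP1 genes lower, with 2753 to 3976 of all genes higher and 2671 to 3975 lower. ABA, late: 1 to 3 PIP1 genes lower, with 1791 to 3198 of all genes higher and 2607 to 3478 lower. Late effect: 0 to 2 PIP1 genes higher, with 514 to 1223 of all genes higher and 523 to 1244 lower. Mock, middle: 1 to 5 PIP1 genes lower, with 881 to 2843 of all genes higher and 968 to 3290 lower. ABA, middle: 0 to 1 PIP1 genes higher and 0 to 2 lower, with 1679 to 3662 of all genes higher and 1853 to 3545 lower. Middle effect: 0 to 2 PIP1 genes higher, with 466 to 1677 of all genes higher and 265 to 1083 lower.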
